A study of Mus musculus with 2 samples.

Results

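The CDK inhibitor genes and the Rb family were examined in AML12, an immortal but non-transformed line of mouse hepatocytes that carries a human TGFα transgene under a metallothionein promoter, either untreated (control) or driven into senescence with hydrogen peroxide. The 10 members were taken by gene symbol from the 35275 genes of the count table, as 3 Cip/Kip inhibitors (Cdkn1a, Cdkn1b and Cdkn1c), 4 INK4 inhibitors (Cdkn2a, Cdkn2b, Cdkn2c and Cdkn2d) and 3 pocket proteins (Rb1, Rbl1 and Rbl2). The senescent cells met peroxide daily for 6 days, in exposures of 1 h that began at 1 mM and continued at 0.75 mM, and recovered for 23 h after each, while the control cells received none. The labels give CD-1 strain, liver, male and an age of 3 months for both conditions, and both were grown in serum-containing medium. In the paper the peroxide exposures took place in serum-free medium and the recoveries in complete medium. Whether the control cells had the same serum-free hours is not stated. RNA of 3 samples per condition was pooled into 1 library, so the values below compare 2 libraries, no spread between replicates exists, and no test was possible.

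Passage from G1 into S phase is driven by D-type cyclins with CDK4 or CDK6 and by E-type cyclins with CDK2, which phosphorylate the pocket proteins. Unphosphorylated pocket proteins hold E2F factors, and p130 and p107 (Rbl2 and Rbl1) also form the DREAM complex, so that cell cycle genes stay repressed. INK4 proteins bind CDK4 and CDK6 alone, and Cip/Kip proteins bind cyclin and CDK together. In senescent cells the arrest is usually attributed to p21, encoded by Cdkn1a, and to p16Ink4a, encoded by Cdkn2a, the latter sharing its gene with p19Arf, an inhibitor of Mdm2 and thereby an activator of p53.

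The 2 Cdkn1 genes with substantial reads moved apart, and so did neighbouring INK4 genes. Cdkn1a was 1.87-fold higher in the senescent library, whereas Cdkn1b was 2.48-fold lower. Among INK4 genes Cdkn2b was 1.38-fold higher, and Cdkn2a, Cdkn2c and Cdkn2d were 2.49-fold, 2.52-fold and 3.01-fold lower. The pocket proteins ranged from 1.14-fold higher for Rb1 to 1.54-fold lower for Rbl2. Cdkn1c was close to absent in both libraries.

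The control library held 28021941 counted reads and the senescent library 25738075, on 17403 and 17592 genes. All 10 members had at least 10 reads over both libraries, the minimum for the 14383 genes compared. Each log2 ratio is senescent over control after scaling by edgeR's TMM method, with a 95% Clopper-Pearson interval. The interval covers counting error only, since each condition had 1 library. PCR copies of a molecule were not told apart. Genes were called past a log2 ratio of 1.5 in either direction, provided the interval left out 0. Scaling by total counts in place of TMM shifts the ratios by −0.11 on the log2 scale. In bulk RNA, fewer cells of a type and less RNA per cell cannot be told apart.

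Cell type markers were checked first. Of 10 hepatocyte markers, Alb had 32076 control and 2917 senescent reads (log2 ratio −3.23) and was called lower. Ttr had 23146 and 10486 reads (−0.91), Hnf4a 8187 and 7705 (0.14) and Serpina1a 102 and 32 (−1.42). Cps1, at 19 and 55 reads (1.71), was called higher. Apoa2 had 0 and 5 reads, and Tat and Trf had at most 26 reads in either library. The summed level of the hepatocyte list was 7685 CPM for control and 9151 CPM for senescent cells, most of it from Krt8 and Krt18. The 5 cholangiocyte markers summed to 1897 and 1421 CPM, most of the difference from Spp1 (25430 and 10580 reads, log2 ratio −1.04). Krt7 was at −1.43, Sox9 at 0.54 and Krt19 at −0.03, and Epcam had 0 and 1 read. The 7 macrophage and leukocyte markers summed to 193.5 and 82.1 CPM, nearly all of it Cd14 (5551 and 1879 reads, log2 ratio −1.33). In the other direction, Ptprc at 27 and 76 reads (1.68) and Csf1r at 15 and 40 (1.58) were called higher, and Adgre1 and Clec4f were at 0 in both. Fibroblast markers summed to 0.928 and 0.242 CPM and endothelial markers to 0.206 and 0.524 CPM. The part of any marker shift in the members' ratios was not tested.

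Promoters are shown for the 2 pairs of related genes with opposite ratios, Cdkn1a with Cdkn1b and Cdkn2a with Cdkn2b, and for Cdkn2d, the only member called. Each window runs from 250 bases before to 30 bases after a RefSeq transcript start on GRCm38.p6, is written 5′ to 3′ on the gene's strand, and has capitals at the GC box (GGGCGG), the CCAAT box (CCAAT) and an E2F motif (TTTCCCGC or TTTGGCGC or TTTGCCGC or TTTCGCGC), each searched on both strands. The first 2 windows are the downstream RefSeq start of Cdkn1a (chr17:29093519-29093798, plus strand) and Cdkn1b (chr6:134920151-134920430, plus strand).
Cdkn1a: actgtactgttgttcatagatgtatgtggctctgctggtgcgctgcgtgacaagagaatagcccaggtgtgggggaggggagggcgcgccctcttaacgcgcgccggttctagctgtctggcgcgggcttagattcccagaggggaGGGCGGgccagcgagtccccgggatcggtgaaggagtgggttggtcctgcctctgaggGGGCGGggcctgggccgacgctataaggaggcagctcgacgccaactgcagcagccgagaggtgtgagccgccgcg
Cdkn1b: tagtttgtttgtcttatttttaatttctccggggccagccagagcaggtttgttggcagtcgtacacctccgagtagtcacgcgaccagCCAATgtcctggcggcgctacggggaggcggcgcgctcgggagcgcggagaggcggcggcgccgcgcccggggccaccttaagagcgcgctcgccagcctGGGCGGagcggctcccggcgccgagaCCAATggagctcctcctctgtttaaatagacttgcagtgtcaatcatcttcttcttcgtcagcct

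The next windows belong to chromosome 4, minus strand. They are the p16Ink4a start of Cdkn2a (chr4:89282163-89282442), its p19Arf start (chr4:89294590-89294869) and the single start of Cdkn2b (chr4:89311003-89311282).
Cdkn2a, p16Ink4a start: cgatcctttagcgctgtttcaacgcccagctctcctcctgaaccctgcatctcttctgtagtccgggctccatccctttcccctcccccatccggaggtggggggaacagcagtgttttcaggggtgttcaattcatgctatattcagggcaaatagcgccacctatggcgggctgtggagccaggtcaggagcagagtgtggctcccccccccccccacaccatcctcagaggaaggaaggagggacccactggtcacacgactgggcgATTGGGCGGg
Cdkn2a, p19Arf start: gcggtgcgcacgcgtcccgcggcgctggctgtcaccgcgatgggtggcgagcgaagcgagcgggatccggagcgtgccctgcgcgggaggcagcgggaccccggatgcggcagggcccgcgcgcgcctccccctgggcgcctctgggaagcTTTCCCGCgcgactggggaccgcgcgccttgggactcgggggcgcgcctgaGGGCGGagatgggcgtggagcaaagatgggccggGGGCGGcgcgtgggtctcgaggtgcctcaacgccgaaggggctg
Cdkn2b: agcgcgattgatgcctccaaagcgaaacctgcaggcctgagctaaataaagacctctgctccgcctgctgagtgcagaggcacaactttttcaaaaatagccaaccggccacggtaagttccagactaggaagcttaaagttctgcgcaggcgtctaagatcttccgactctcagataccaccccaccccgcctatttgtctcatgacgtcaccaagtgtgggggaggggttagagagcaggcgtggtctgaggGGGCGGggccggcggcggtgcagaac

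Cdkn2d, with the lowest ratio of the family, is on chromosome 9, minus strand (chr9:21291180-21291459).
Cdkn2d: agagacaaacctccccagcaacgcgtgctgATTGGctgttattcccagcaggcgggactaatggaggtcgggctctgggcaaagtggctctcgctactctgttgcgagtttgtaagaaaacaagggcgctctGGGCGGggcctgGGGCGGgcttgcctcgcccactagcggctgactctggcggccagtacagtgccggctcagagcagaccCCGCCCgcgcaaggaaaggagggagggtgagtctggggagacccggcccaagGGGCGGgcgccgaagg

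These letters are a description and not binding sites. Among the 11 windows of the 8 members with one, 9 held a GC box, against 34.7% of 32851 promoters of the same length, 4 held a CCAAT box, against 36.1%, and 2 held an E2F motif, against 2.12%. The 11 windows had from 43.9% to 77.1% G and C, and the median of all promoters was 52.5%. The counts of motifs were not adjusted for this content. The E2F matches were TTTCCCGC, at position −99 from the p19Arf start, and TTTCGCGC, at −18 from the Rbl1 start. In the p16Ink4a window the CCAAT and GC matches overlap. The p16Ink4a window had 60.7% G and C and an observed over expected CpG ratio of 0.389, below the 77.1% and 1.07 of the p19Arf window. The FOXO letters GTAAACA were in 0 of the 11 windows, against 3.49% of all promoters. The E-box CACGTG was likewise in 0 of 11, against 6.79%, and the letters TATAAA of a TATA box in 0 of 11, against 13.1%. A window without these letters says nothing about the factors. The upstream Cdkn1a start, not printed (chr17:29090729-29091008), held 0 GC boxes, with 54.3% G and C and a CpG ratio of 0.097, against 65.7% and 0.807 for the window above. Rb1 and Cdkn1c had no window here.

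The Cip/Kip genes had the highest and the lowest levels of the family. Cdkn1a (chr17:29090976-29100727, plus strand) had 6182 control reads and 9869 senescent reads, giving a log2 ratio of 0.90 with an interval from 0.86 to 0.95. It encodes p21, a p53 target that binds cyclin E and A complexes. The ratio stood below the called threshold, and 93.01% of the genes compared had a ratio at or below it. Its level was 59.8 reads per kilobase of exon, scaled by TMM to library size (RPKM), for control and 112.0 for senescent cells. Of its 50-base stretches, 8.49% were shared with other annotated genes.

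Cdkn1b (chr6:134920401-134925513, plus strand), which encodes p27, had 4671 control reads and 1607 senescent reads. Its log2 ratio was −1.31 with an interval from −1.39 to −1.23, and 7.33% of the genes compared were at or below it. The level per length was 35.3 and 14.2. The 7 compared genes within 250 kb of Cdkn1b ranged from −1.83 to 1.52, with a median of −0.49. Within each library, Cdkn1a reads over Cdkn1b reads were 1.32 for control and 6.14 for senescent cells, a change of 2.21 on the log2 scale (interval 2.12 to 2.31) that needs no scaling. Cdkn1c (chr7:143458339-143461050, minus strand), the imprinted gene of p57, was covered by 8 control and 7 senescent reads. Its log2 ratio was 0.03 with an interval from −1.66 to 1.69, so a difference inside these bounds was not detectable at this depth, and 24.9% of its 50-base stretches are shared with Gm44732, an annotated antisense gene that overlaps 625 of its exon bases.

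The INK4 genes included 3 with lower and 1 with higher level in the senescent library. Cdkn2a (chr4:89274471-89294653, minus strand) had 437 control reads and 149 senescent reads. The log2 ratio was −1.32 (interval −1.60 to −1.05). Its 2 annotated transcripts have separate first exons, of 207 bases for p16Ink4a (chr4:89281986-89282192) and 320 bases for p19Arf (chr4:89294334-89294653), and share 575 bases, 67.5% and 64.2% of their lengths. Gene counts therefore do not separate p16Ink4a from p19Arf. By RT-qPCR the paper reports higher mRNA of both p21 and p16 in senescent AML12 cells, with the gene symbols of p21 and p16 exchanged. The Cdkn1a ratio here has that direction, and the Cdkn2a ratio has the opposite one. The reason was not tested. Cdkn2b (chr4:89306299-89311039, minus strand), which encodes p15, had 472 and 555 reads and a log2 ratio of 0.46 (interval 0.28 to 0.64), with 19.6% of genes at or above it.

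These genes lie 11646 bp apart on the same strand. Cdkn2b reads over Cdkn2a reads were 1.08 for control and 3.72 for senescent cells, a change of 1.79 on the log2 scale (interval 1.46 to 2.12). Mtap, a methylthioadenosine phosphorylase gene 93390 bp from Cdkn2a on the opposite strand, had 2947 and 3998 reads and a log2 ratio of 0.67. The pair was chosen after its values were seen.

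**Figure D1:**
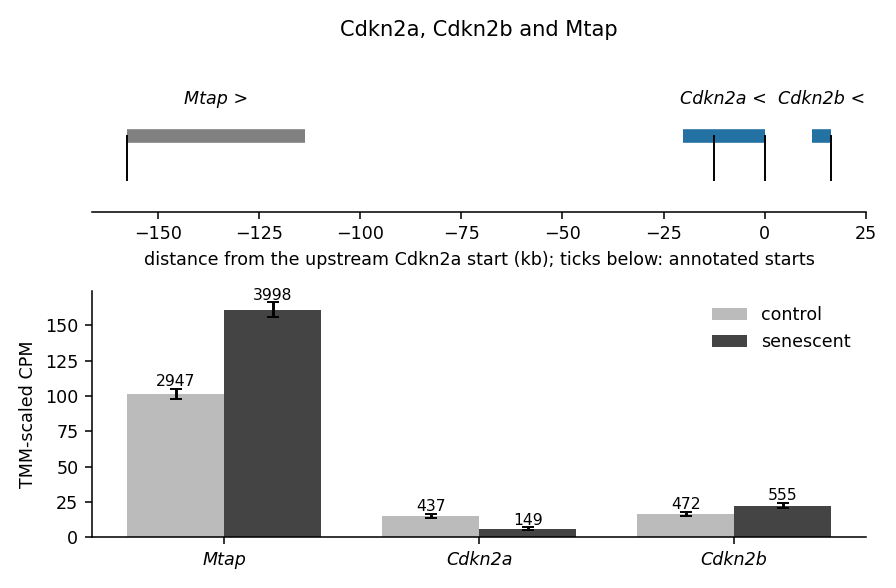
Map of Mtap, Cdkn2a and Cdkn2b by distance in kb from the p19Arf start, with ticks at annotated starts and arrows for strand, above TMM-scaled CPM in the control and senescent library with exact Poisson intervals and read counts on the bars. Cdkn2a has 437 control and 149 senescent reads, and Cdkn2b and Mtap are higher in the senescent library.

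Cdkn2c (chr4:109660876-109667189, minus strand), which encodes p18, had 463 and 156 reads and a log2 ratio of −1.33 (interval −1.61 to −1.08). Cdkn2d (chr9:21288410-21291407, minus strand), which encodes p19Ink4d, had 295 and 83 reads and a log2 ratio of −1.59 (interval −1.97 to −1.24). This was the only member past the threshold. Taken as first minus second gene, changes in Cdkn2c and Cdkn2a differed by −0.02 on the log2 scale (interval −0.40 to 0.37). Those in Cdkn2a and Cdkn2d differed by 0.28 (interval −0.18 to 0.74), and those in Cdkn2c and Cdkn2d by 0.26 (interval −0.19 to 0.72). Each of these 3 intervals includes 0. No 50-base stretch of any INK4 gene was shared with another gene. Kri1, 441 bp from Cdkn2d on the same strand, had a log2 ratio of 0.67.

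The log2 ratios of the pocket protein genes ran from −0.62 to 0.19. Rb1 (chr14:73183673-73325822, minus strand) had 694 and 675 reads and a log2 ratio of 0.19 (interval 0.03 to 0.34). With total-count scaling the ratio was 0.08 (interval −0.07 to 0.24) and with upper-quartile scaling 0.15 (interval −0.0043 to 0.31), so a difference from 0 depends on the scaling. Rbl1 (chr2:157145893-157204534, minus strand), encoding p107, had 890 and 617 reads and a log2 ratio of −0.30 (interval −0.45 to −0.15). Rbl2 (chr8:91070057-91123844, plus strand), encoding p130, had 1372 and 760 reads and a log2 ratio of −0.62 (interval −0.75 to −0.49). The difference between Rb1 and Rbl2 was 0.81 on the log2 scale (interval 0.61 to 1.01). Rb1 shares exon bases with Lpar6 (408) and Rcbtb2 (488), both on the opposite strand and at log2 ratios of −0.95 and −0.83, and Rbl2 shares 693 with Aktip, at 0.22. The split of reads at these overlaps is uncertain, since the use of strand in counting is not given in the sources used here.

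Over the family, 0 members were called higher and 1 lower, against 2.71% and 5.6% of the genes compared. At a log2 ratio of 1 with an interval without 0, the members numbered 0 higher and 4 lower (Cdkn1b, Cdkn2a, Cdkn2c and Cdkn2d), against 5.09% and 9.98%. Intervals lay above 0 for 3 members (Cdkn1a, Cdkn2b and, only with some scalings, Rb1) and below 0 for 6, against 34% and 34.6% of the genes compared. The median log2 ratio was −0.46 for the members and −0.02 for all genes compared.

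**Figure D2:**
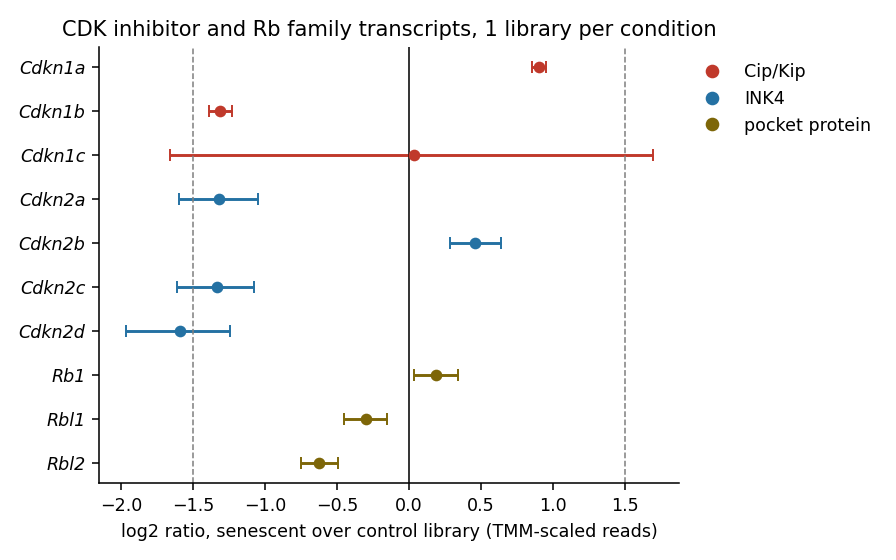
Log2 ratio of senescent over control (x axis, TMM-scaled reads) for each member, with 95% counting intervals, coloured by role, and dashed lines at 1.5 and −1.5. Cdkn1a lies highest at 0.90 and Cdkn2d lowest at −1.59, and the interval of Cdkn1c spans 0 widely.

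**Figure D3:**
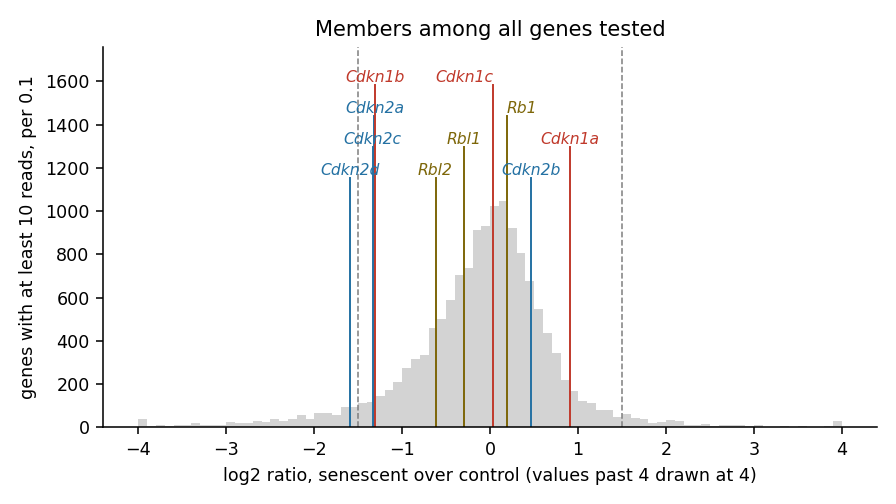
Histogram of log2 ratios of the 14383 genes compared (x axis, bins of 0.1, y axis number of genes), with each member as a line at its ratio, coloured by role. Cdkn1b, Cdkn2a and Cdkn2c fall together between −1.33 and −1.31, and Cdkn2d falls just past −1.5.

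Levels per exon length put the members in order. In the control library the order was Cdkn1a (59.8), Cdkn1b (35.3), Cdkn2a (12.8), Cdkn2b (11.7), Cdkn2d (6.44), Rbl2 (6.24), Cdkn2c (5.93), Rbl1 (5.11), Rb1 (3.97) and Cdkn1c (0.135). Neighbours whose intervals overlap were Cdkn2a and Cdkn2b, and every step from Cdkn2d to Rbl1. In the senescent library the order was Cdkn1a (112.0), Cdkn2b (16.1), Cdkn1b (14.2), Cdkn2a (5.13), Rb1 (4.52), Rbl1 (4.15), Rbl2 (4.05), Cdkn2c (2.34), Cdkn2d (2.13) and Cdkn1c (0.138). There, intervals overlapped for Cdkn2b with Cdkn1b, for Cdkn2a to Rbl2 step by step, and for Cdkn2c with Cdkn2d. The order depends on the length used. Per coding length Cdkn1b (109.6) stood above Cdkn2b (57.4) in the senescent library, and in the control library Cdkn2a (29.6) ranked 5, below Cdkn2b (41.6) and Cdkn2c (31.6), while Cdkn1a stayed first and Cdkn1c last in both.

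**Figure D4:**
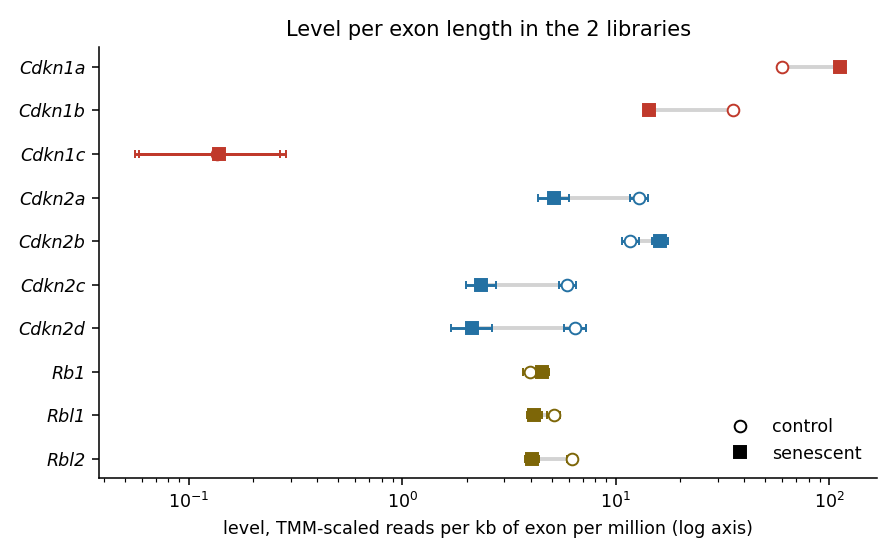
Level per exon length (x axis, log scale, TMM-scaled RPKM) of each member in the control (open circles) and senescent library (filled squares) with Poisson intervals, coloured by role. Cdkn1a stands above all members in both libraries, at 59.8 and 112.0.

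As a share of the summed level of the 7 inhibitors, Cdkn1a took 45.3% for control and 73.7% for senescent cells, and Cdkn1b 26.7% and 9.36%. Among INK4 genes Cdkn2b took 31.7% and 62.7%, and Cdkn2a 34.8% and 19.95%. The INK4 sum was 36.9 for control and 25.7 for senescent cells, the Cip/Kip sum 95.3 and 126.4, and the pocket protein sum 15.3 and 12.7. D-type cyclins over the INK4 sum were 5.86 and 17.3. The D-type cyclin sum was 216.2 and 445.4, of which Ccnd1 gave 194.9 and 423.4. Ccnd2 was at 15.1 and 17.8, and Ccnd3 at 6.22 and 4.25. INK4 over Cdk4 plus Cdk6 was 0.374 and 0.3004, whereas Cip/Kip over Cdk2 plus Cdk1 was 7.99 and 9.80. D-type cyclins over the Cip/Kip sum were 2.27 and 3.52. The 7 inhibitors together summed to 132.1 for control and 152.1 for senescent cells. The INK4 shares, sum and ratios count all Cdkn2a reads, which do not separate p16Ink4a from p19Arf, the Mdm2 inhibitor. All these shares, sums and ratios use exon length and, like the order, depend on the length used. Per coding length Cdkn2a (29.6) was not the largest INK4 gene in the control library, where Cdkn2b was at 41.6.

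The pathway genes around the members were counted by list. Among 12 G1 cyclins and CDKs 0 were called, with Ccnd1, which encodes cyclin D1, at 26692 and 49447 reads (log2 ratio 1.12), Cdk6 at 0.87, and Ccne1 and Ccne2 at −0.86 and −0.82. Of 10 E2F and DP factors 0 were called, with E2f2 at −0.90, the repressive E2f8 and E2f7 at −0.85 and −0.68, and E2f3 at 0.80. The 30 E2F and DREAM target genes held 0 calls and a median of −0.15, with intervals above 0 for 7 and below 0 for 13. The largest ratios were all lower, with Tyms, the thymidylate synthase, at −1.01, Mki67 and Tk1 at −0.79 and Bub1, a mitotic checkpoint kinase, at −0.72. The 18 genes of p53 and its targets held 1 called higher, Mdm2 (1.53), and 1 lower, Mdm4 (−1.94), both regulators of p53, with Fas at −1.35, Zmat3 at 1.18 and a median of 0.38. Of 26 transcriptional regulators of these genes, 25 had enough reads and 1 was called, Id1 (−1.62), while Foxo4, a FOXO factor that raises p27, was at −1.37, Myc at 1.198 and Smad3 at 1.11. The 11 genes for turnover of the inhibitor proteins, the 9 DREAM partners, the 9 S and G2 cyclins and CDK1 genes and the 10 Rb co-repressors held 0 calls each, with medians of −0.05, −0.06, −0.07 and 0.10, the last of which was −0.006 with total-count scaling. Of 7 other CDK-binding proteins 1 was called, Cables1 at 4 and 17 reads, while Cables2, at 447 and 1052 reads, had a log2 ratio of 1.46. Of the 8 measured imprinted neighbours of Cdkn1c 1 was called, Phlda2 at 15 and 60 reads. Over the 149 measured genes of all lists 3 were called higher and 2 lower, beside 2.71% and 5.6% of all genes compared, with a median log2 ratio of −0.01.

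**Figure D5:**
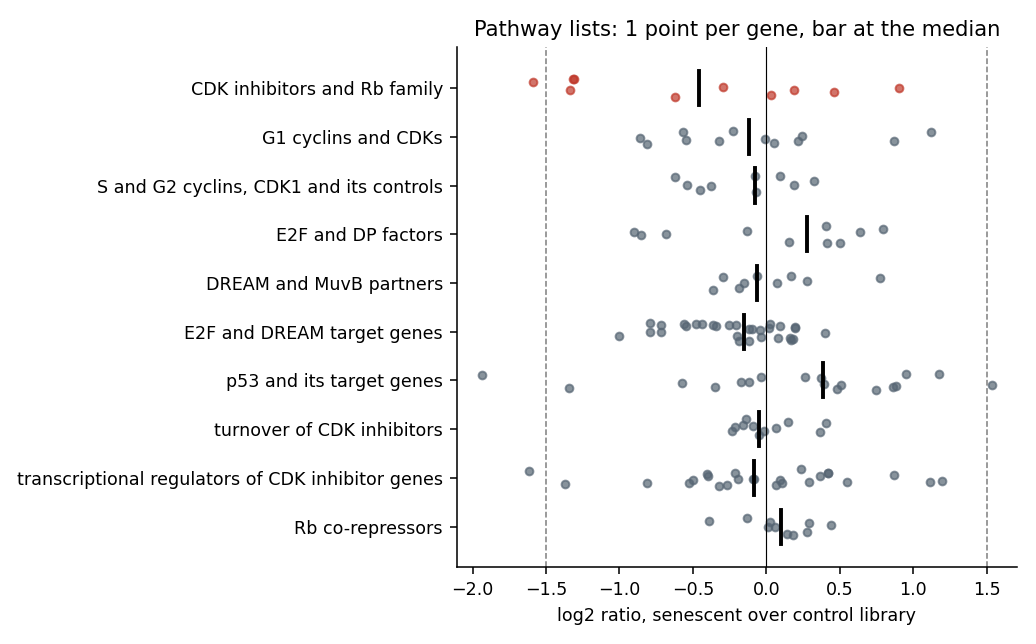
Log2 ratios (x axis, senescent over control) of the members and of the measured genes in the pathway lists. Each gene is 1 point, with a black bar at each median and dashed lines at 1.5 and −1.5. The lists of other CDK-binding proteins and of imprinted neighbours of Cdkn1c are not drawn. The members have the lowest median, −0.46, and the p53 list the highest, 0.38.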

How the data were processed

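Poly(A) RNA of AML12 cells was sequenced as 1 library per condition, each from 3 pooled samples. The authors deposited un-normalized read counts per Ensembl gene for both libraries, and the submitters' processing notes name CASAVA, STAR, DESeq2, edgeR and mm10. The annotation, counting tool and strand setting are not given in the sources used here. Columns were matched to samples by the initials of the sample titles. Of 35275 genes, 34490 (97.8%) had a symbol in GENCODE M21.

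Counts were scaled with TMM factors of edgeR 4.0.16 in R 4.3.3, computed on all genes (1.04, control; 0.964, senescent), with a prior count of 1. A first computation took the factors from genes with at least 10 reads; it was replaced after its values were seen, because the stated design scales all genes together, and it is kept as an added alternative. DESeq2 1.42.0 gave alternative size factors. Intervals are Clopper-Pearson or exact Poisson at 95%, computed with scipy 1.17.1 in Python 3.11.15. The code was run on simulated counts with counting error only and with set changes larger than that of any member. This run checks the computation and says nothing about spread between replicates or about calls near the threshold. A floor of 3 reads was used. Levels per length used union exons of GENCODE M21. All members were named, and other genes were drawn from those the rule allowed: up to 4 of the largest ratios of a list among genes with at least 100 reads, any gene of a list of 12 or fewer, and genes near or overlapping a member. Cell type markers were named to describe the libraries. The members, lists and motifs were chosen with earlier results of these data known. Alternatives were 3 other scalings, minimums of 1 and 100 reads, prior counts of 0.125 and 5, thresholds of 1 and 2, and assumed coefficients of variation of 0.1 and 0.4.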

Additional observations from a re-analysis of the deposited data

How the results depend on the processing

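No paired analysis was possible because each condition has 1 library, and for the same reason no replicate could be left out. Of 119 log2 ratios of members under an alternative, 112 kept their direction and their side of the threshold. Much of this agreement was built in. The read minimums, thresholds and assumed coefficients of variation leave the ratio itself unchanged, so no direction could turn there. The read minimums could also move no compared member across the threshold. Cdkn1c turned to −0.062 with total-count scaling and to −0.00166 with upper-quartile scaling, within its counting interval. At a threshold of 1, Cdkn1b (−1.31), Cdkn2a (−1.32) and Cdkn2c (−1.33) were also called lower, giving 4 members, and at a threshold of 2 or an assumed coefficient of variation of 0.4, Cdkn2d (−1.59) was not called and 0 members remained past it. With a coefficient of 0.1, 7 of 10 members kept an interval without 0, and with 0.4, 0 of 10 did. Over all genes, 732 were higher and 1435 lower at a threshold of 1, 219 and 460 at 2, 141 and 395 with at least 100 reads, 259 higher with a prior count of 5 and 243 higher with a coefficient of 0.4. Over the pathway lists, 8 were higher and 5 lower at a threshold of 1, 0 lower at 2, and 1 higher with at least 100 reads or a coefficient of 0.4. Of 144 list medians, 6 moved: with total-count scaling p53 and its targets to 0.28, the transcriptional regulators to −0.19, the Rb co-repressors to −0.006 and the housekeeping genes to −0.14 (−0.07 with upper quartiles), and with at least 100 reads the imprinted neighbours of Cdkn1c to −0.46. Cdkn1c has no value with at least 100 reads. TMM factors from genes with at least 10 reads, an alternative added after the data were seen, gave 391 genes higher and 805 lower and changed no call of a member. Of 40 levels per length, 21 moved beyond their counting interval with coding length or total-count scaling. Coding length changes the divisor, so its moves were built in, and Cdkn1c alone stayed inside its wide interval. With total-count scaling, the levels that moved were Cdkn1a in both libraries (62.1 control, 107.9 senescent) and Cdkn1b in the control library (36.6).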
